A study of Mus musculus with 2 samples.

Results

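The genes described here are the receptors for the cytokines BAFF and APRIL and the proteins that carry their signal inside the cell. They are Tnfrsf13c, Tnfrsf13b, Tnfrsf17, Traf1, Traf2, Traf3, Map3k14, Birc2 and Birc3, chosen by name. They make up 9 of 27670 gene symbols on the array and have 12 of its 41174 probes. The 2 arrays compared autoreactive with non-autoreactive immature B cells of mouse bone marrow. The autoreactive cells are labelled as coming from BALB.B mice of genotype 3-83Igi, Rag1-/-, H-2b, and the non-autoreactive cells from BALB/c mice of genotype 3-83Igi, H-2d. Both groups carry the 3-83Igi knock-in, an antigen receptor of fixed specificity for class I of H-2b mice. All mice were untreated, their ages are not given in the sources used here, and the cells were pooled and sorted as B220+ and negative for CD23, CD43 and IgD. The autoreactive RNA was labelled with Cy5 and the non-autoreactive RNA with Cy3 on both arrays, so dye, strain, H-2 haplotype and labelled Rag1 genotype cannot be told apart from autoreactivity.

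BAFF keeps B cells alive after they leave the immature stage. It binds the BAFF receptor, encoded by Tnfrsf13c, and also TACI and BCMA, encoded by Tnfrsf13b and Tnfrsf17, both of which bind APRIL as well. In a resting cell, TRAF3, TRAF2 and the ubiquitin ligases cIAP1 and cIAP2 (Birc2 and Birc3) keep the kinase NIK (Map3k14) at a low level by marking it for degradation. Binding of BAFF to its receptor releases NIK, which starts the alternative NF-kB pathway through processing of the Nfkb2 product. In the bone marrow, the BAFF receptor is known to appear on B cells as they pass from the immature to the transitional stage.

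Between 54.1% and 57.4% of the 43379 gene spots in a channel stood well above background, no spot was saturated, and the number of arrays limits the precision. Gene ratios had an SD of 0.36 (log2) on array 1 and 0.50 on array 2. The H-2 label was checked with H2-Ea, a class II gene that H-2b mice do not transcribe. Array 1 gave a log2 ratio of autoreactive over non-autoreactive cells of -5.22, and array 2 gave -5.26. Rag1, the gene labelled as disrupted in the autoreactive mice, was not lower but higher in their channel. Its brightest probe stood at 4.25 and 4.02, and all 3 of its probes were called higher (mean log2 ratios of 4.14, 3.32 and 1.04). The disrupted stretch of the gene is not given in the sources used here and the probes were not placed against it, so the Rag1-/- label is left as the label's statement. Of 9 B lineage markers, 2 were lower and 1 higher, while 2.61% of all genes tested were called lower and 3.49% higher. Ptprc, the gene of the B220 antigen used in the sort, was among those lower (-0.85), with 2 of its 4 probes called. Pax5 was the other marker called lower (-1.05), and its dimmer probe was not called (-0.40). Blnk, an adaptor of the antigen receptor, was higher (1.08). The series design speaks of biological replicates, but replicate numbers are given only to the autoreactive pools, and the animals behind each pool are not listed. A p-value here covers only the spread between these 2 arrays, which limma pools in part over all probes tested. That spread may be technical.

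The promoters of Tnfrsf13c and Traf1 are shown because these were the genes of the group that differed between the 2 kinds of cell, and that of Traf3 because it was the promoter in the group that held a kappaB consensus. Each line gives the 250 bases before the RefSeq start site (build GRCm38.p6), on the strand of the gene, with matches to the motifs searched in capitals.
Tnfrsf13c, chr15:82224381-82224630, minus strand: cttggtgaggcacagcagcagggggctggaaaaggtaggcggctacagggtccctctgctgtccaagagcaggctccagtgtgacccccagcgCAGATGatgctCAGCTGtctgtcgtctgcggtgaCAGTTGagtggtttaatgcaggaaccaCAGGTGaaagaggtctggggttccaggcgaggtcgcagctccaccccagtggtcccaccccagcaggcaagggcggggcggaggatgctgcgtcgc
Traf1, chr2:34961773-34962022, minus strand: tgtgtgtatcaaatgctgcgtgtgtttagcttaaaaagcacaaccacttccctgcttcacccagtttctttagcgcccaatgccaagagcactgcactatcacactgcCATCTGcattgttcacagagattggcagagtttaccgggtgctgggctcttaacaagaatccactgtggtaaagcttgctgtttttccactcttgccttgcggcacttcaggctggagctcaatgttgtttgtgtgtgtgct
Traf3, chr12:111166120-111166369, plus strand: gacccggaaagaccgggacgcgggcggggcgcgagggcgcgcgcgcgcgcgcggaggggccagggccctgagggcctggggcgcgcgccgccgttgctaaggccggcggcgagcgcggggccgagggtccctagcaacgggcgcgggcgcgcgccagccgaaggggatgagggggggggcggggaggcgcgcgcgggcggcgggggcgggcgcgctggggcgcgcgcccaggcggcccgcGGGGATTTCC

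All 9 genes had an entry in the RefSeq promoter table, with 10 windows in all, as Birc2 has 2 start sites. Both strands were searched for 3 motifs, the E-box CAGNTG bound by E2A proteins, the palindromic EBF consensus and the kappaB consensus bound by NF-kB dimers. Tnfrsf13c held 4 E-boxes, between 157 and 91 bases before its start site. Of 32851 promoter windows in the table, 44.8% held an E-box on either strand and 0.56% held at least 4. Traf1 held 1 E-box, and Tnfrsf17 and Birc3 held 2 each. The kappaB consensus of Traf3 occupied the last 10 bases before its start site, and 7.25% of all windows held such a match. No window of the group held the EBF consensus, which 0.779% of all windows held. The bases of the Tnfrsf13c window were 63.2% G or C, those of Traf1 48.0% and those of Traf3 85.2%, against a median of 52.4% over all windows. A match describes these letters and says nothing of binding.

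Of the 9 genes, 8 were detected, that is, on each array at least 1 channel of a probe was well above background. With limma and Benjamini-Hochberg adjustment over all 22623 probes tested, at a threshold of 0.05, Tnfrsf13c and Traf1 were lower in autoreactive cells and the other 6 detected genes were not called. Among all probes tested, 5.31% were called, 2.17% lower and 3.15% higher, and 2 of the 11 detected probes of the group were called, both lower. Among all 15114 genes tested, each represented by its brightest probe, 2.61% were called lower and 3.49% higher. The 8 genes had a median log2 ratio of -0.35, with -0.24 on array 1 and -0.49 on array 2, against -0.0017 over all genes tested. With loess, no gene of the group was called higher by limma (0 of 8). Its separate-channel fit, also after loess, called 0 higher and 4 lower. In the main limma fit without adjustment, 4 genes of the group were lower and 1 was higher at p under 0.05. Of all genes, 12.3% were lower and 12% higher in this way. Both arrays were below 0 for 4 of the 8 genes, and 35.3% of all genes tested showed this. Map3k14 was above 0 on both arrays, and Traf2, Birc2 and Birc3 lay on opposite sides of 0.

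The log2 ratio compares the 2 channels of an array after loess normalization, so its 0 is the level at which most probes of like brightness stand. The scaling sets that 0. Over the whole array, 712 probes were called higher and 490 lower, and when loess was replaced by centring on the median of all probes the split was 14319 higher and 529 lower. Centring on the median of the detected probes gave 3488 higher and 3945 lower. The median of all genes moved to 0.58 under centring on all probes and to 0.047 under centring on detected probes. Directions given below for Tnfrsf13c, Traf1, Traf2, Map3k14 and the dimmer Tnfrsf13b probe were the same under these scalings, and those of the brighter Tnfrsf13b probe, Traf3, Birc2 and Birc3 were not under at least 1 of them.

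**Figure D1:**
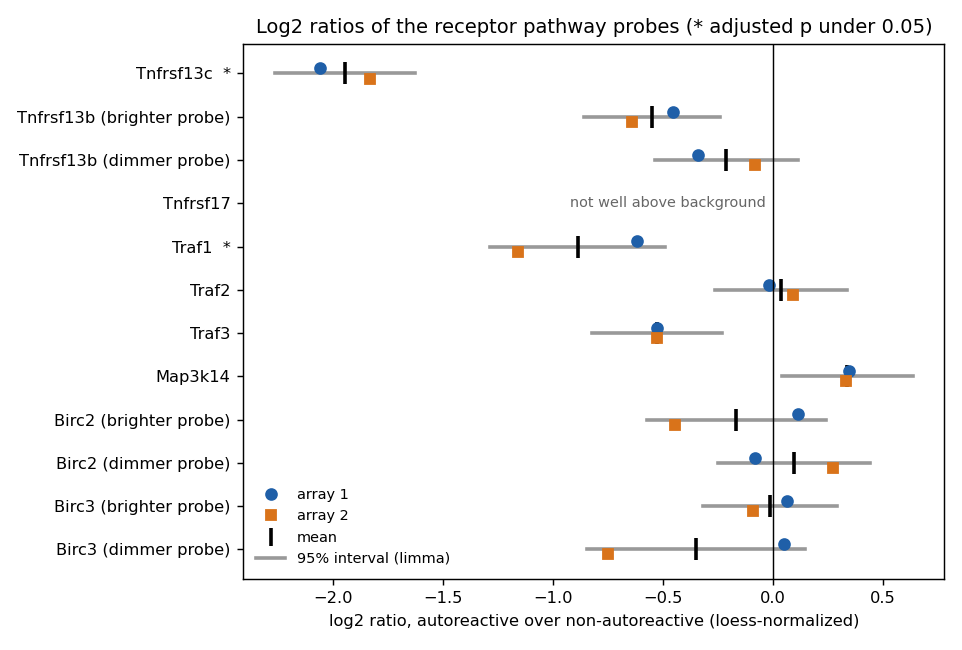
Log2 ratio of autoreactive over non-autoreactive cells (horizontal axis) for each of the 11 detected probes, with circles for array 1, squares for array 2, a black bar for the mean and a grey line for limma's 95% interval. Tnfrsf17 was not well above background and has no symbol, and asterisks mark an adjusted p under 0.05. Both arrays placed Tnfrsf13c near -2, at -2.06 and -1.83, apart from the other probes.

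Among the receptors, Tnfrsf13c, the gene of the BAFF receptor, was lower in autoreactive cells. Its log2 level after loess and scaling between arrays was 13.80 on array 1 and 13.98 on array 2 in autoreactive cells, against 15.86 and 15.81 in non-autoreactive cells. Both autoreactive values lay below both non-autoreactive ones. The share of all genes with levels apart in this way was not counted, here or for Tnfrsf13b, Traf1 and Traf3 below. The log2 ratios were -2.06 on array 1 and -1.83 on array 2, with a mean of -1.94 ± 0.13 (limma SE, n = 2 arrays) and a 95% interval of -2.26 to -1.63. This is 3.85-fold lower, with a limma adjusted p of 0.00266. The arrays differed by 0.23, close to the median difference of 0.19 over all probes. Of all genes tested, 23 (0.152%) had a lower mean ratio than Tnfrsf13c. Its single probe lies at chr15:82306190-82306249 in the array's own positions, for which no genome build is named in the files, so neither its exon nor its place against the promoter above was looked up.

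Most of the size of the Tnfrsf13c ratio depends on how the dyes were balanced. Its mean intensities before normalization were 27490 and 28795 in autoreactive cells, against 31104 and 31603 in non-autoreactive cells. The log2 ratio before loess was -0.18 on array 1 and -0.13 on array 2. The 501 probes nearest to it in brightness had a median ratio before loess of 1.88 on array 1 and 1.69 on array 2, as Cy5 signals ran above Cy3 signals there. Loess subtracts this trend with brightness. The normalized ratio therefore restates the distance of Tnfrsf13c from these neighbours, and that distance is no separate check of the ratio. After loess, the neighbours had medians of -0.0093 and -0.012, as the method sets. Centring on the median of all probes, which removes no trend with brightness, gave -0.81, and the gene was called lower under each of the 10 other settings that fitted its probe (limma adjusted p between 0.000921 and 0.0119).

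**Figure D2:**
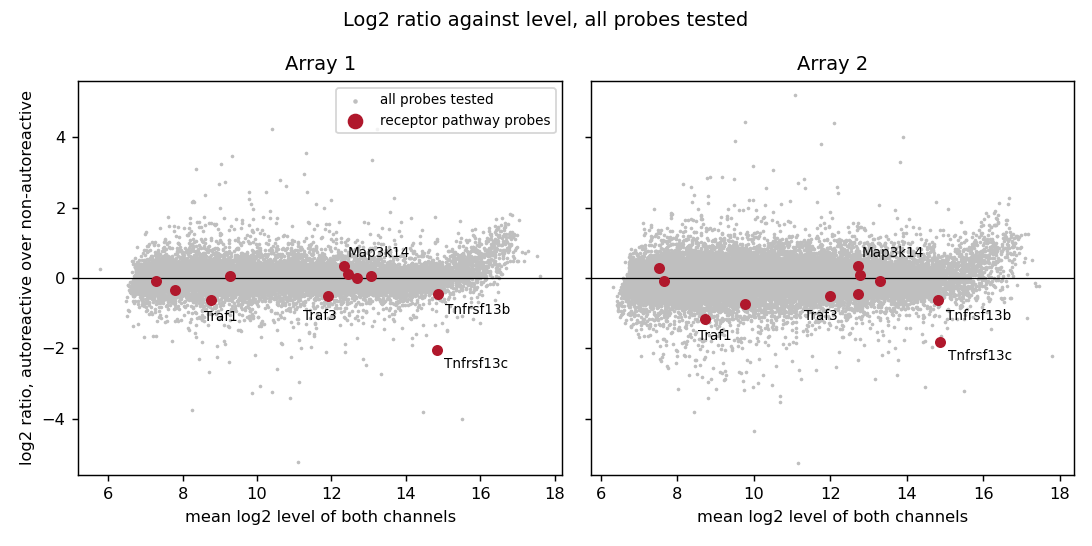
Log2 ratio of autoreactive over non-autoreactive cells (vertical axis) against the mean log2 level of both channels (horizontal axis), in 1 panel per array, with grey points for all 22623 probes tested and red points for the 11 detected receptor pathway probes. Tnfrsf13c lies below the band of probes of like level on both arrays, and Tnfrsf13b lies at nearly the same level close to the band. The band bends upwards at the highest levels, to the right of both genes.

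Tnfrsf13b, the gene of TACI, was measured by a pair of probes and neither was called. The brighter probe, at chr11:61230555-61230614 in the array's positions, had log2 levels of 14.63 and 14.52 in autoreactive cells, against 15.08 and 15.16 in non-autoreactive cells. Both autoreactive values lay below the non-autoreactive ones. Array 1 gave a log2 ratio of -0.46 and array 2 one of -0.64, with a mean of -0.55 ± 0.13 (95% interval -0.86 to -0.24, limma adjusted p = 0.0686). The dimmer probe, at chr11:61223024-61228432, gave -0.34 and -0.08, with a mean of -0.21 ± 0.13 (limma adjusted p = 0.384). Its log2 levels were low, between 7.61 and 7.98 over both channels and arrays. The brighter probe is listed under a cDNA clone accession, so the probes may report different transcripts, which was not tested. Its ratio turned to 0.58 with centring on all probes, where it was called higher (limma adjusted p = 0.00611), and to 0.046 with centring on detected probes. With separate channels it was called lower (limma adjusted p = 0.0431).

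Tnfrsf17, the gene of BCMA, which is known as a receptor of plasma cells, was not well above background in either channel on either array. Its probe lies at positions 436643 to 436702 of the sequence called 16_random in the array's annotation. Its mean intensity was 86.4 and 88.5 in autoreactive cells, over local backgrounds of 55 and 54. In non-autoreactive cells it was 51.2 and 54.2, over local backgrounds of 34 and 33. No ratio is given, as both kinds of cell were below the limit of detection.

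**Figure D3:**
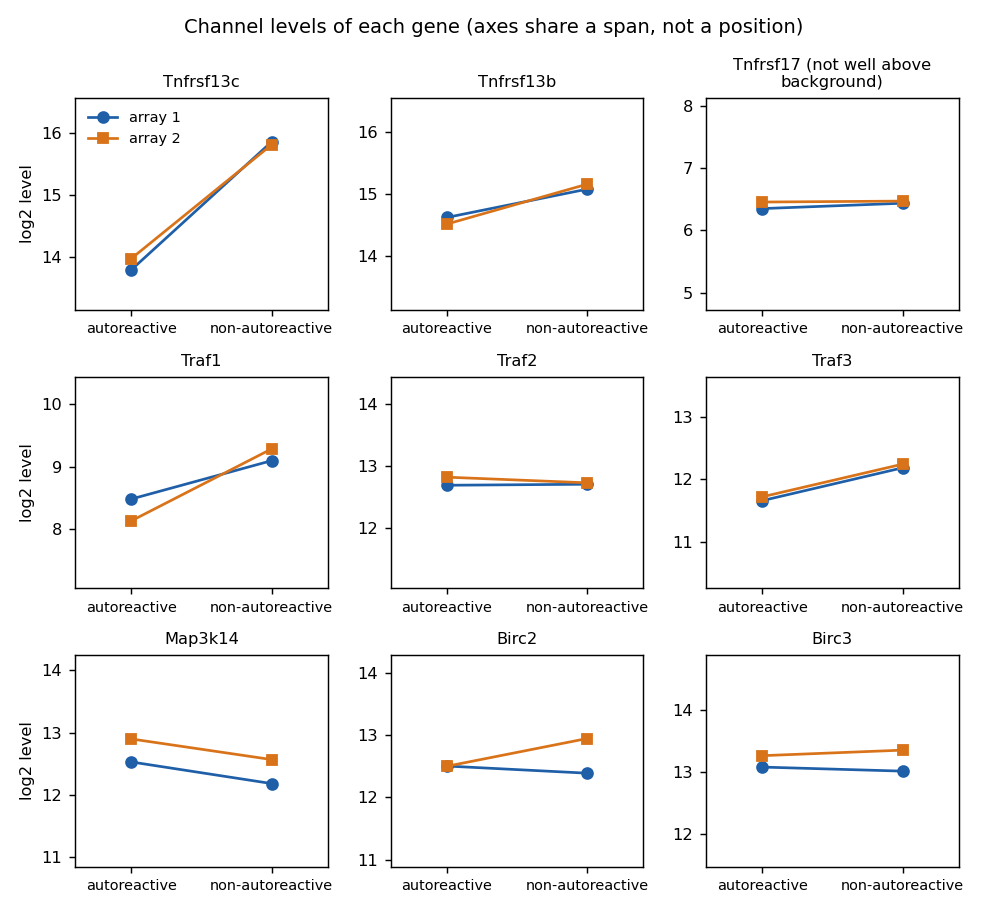
Log2 level of each gene's brightest probe (vertical axis, after loess and scaling between arrays) in autoreactive cells on the left and non-autoreactive cells on the right of each panel, with circles for array 1 and squares for array 2 joined by lines. Every panel spans the same range of log2 units around its own mean. Tnfrsf13c has the steepest lines, with 13.80 and 13.98 in autoreactive and 15.86 and 15.81 in non-autoreactive cells, and the lines of Birc2 and Birc3 slope in opposite directions on the 2 arrays.

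Among the adaptors, Traf1 was lower in autoreactive cells. TRAF1 is an adaptor that joins TRAF2 complexes, and its gene is a known NF-kB target. Its log2 level was 8.48 and 8.13 in autoreactive cells, against 9.10 and 9.29 in non-autoreactive cells. Both autoreactive values lay below the non-autoreactive ones. The log2 ratios were -0.62 on array 1 and -1.16 on array 2, with a mean of -0.89 ± 0.16 (95% interval -1.29 to -0.49), or 1.85-fold lower (limma adjusted p = 0.0366). The arrays were 0.54 apart, farther than 89.9% of probes. The call was lost with the deposited ratios (-1.04, limma adjusted p = 0.0591) and without the filter on dim probes (-0.89, limma adjusted p = 0.0815). The probe lies at chr2:34950673-34950732 in the array's positions.

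Traf2, the adaptor that brings the cIAP proteins to the receptor, was at nearly equal levels in both kinds of cell after loess. Its log2 level was 12.69 and 12.82 in autoreactive cells, against 12.71 and 12.73 in non-autoreactive cells. The log2 ratios were -0.016 on array 1 and 0.091 on array 2, with a mean of 0.037 ± 0.12. With the 0 set by loess, the 95% interval of -0.26 to 0.34 leaves out a change of 2-fold in either direction (limma adjusted p = 0.880). That interval covers the spread of the 2 arrays, pooled in part over all probes tested, and not the choice of scaling. The scaling decides the mean ratio, which was 0.85 and called higher with centring on all probes (limma adjusted p = 0.00142). With centring on detected probes it was 0.32 and not called.

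Traf3, the adaptor that holds NIK for degradation, had log2 levels of 11.66 and 11.72 in autoreactive cells, against 12.19 and 12.24 in non-autoreactive cells. Both autoreactive values lay below the non-autoreactive ones, a pattern not counted over all genes. The arrays gave nearly the same ratio, -0.53 on each. The mean of -0.53 ± 0.12 (95% interval -0.82 to -0.23) did not pass the threshold (limma adjusted p = 0.0679). It passed with separate channels (limma adjusted p = 0.0429), and the ratio turned to 0.20 with centring on all probes. The probe lies at chr12:108783249-108783308 in the array's positions, again with no build named.

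Map3k14, the gene of NIK, was the single gene of the group above 0 on both arrays. Its log2 level was 12.53 and 12.90 in autoreactive cells, against 12.18 and 12.57 in non-autoreactive cells. The ranges of the 2 kinds of cell overlap, as array 2 was brighter in both channels, and within each array the autoreactive channel was higher. The log2 ratios were 0.35 and 0.33, with a mean of 0.34 ± 0.12 (95% interval 0.043 to 0.64), which did not pass the threshold (limma adjusted p = 0.172). Centring on detected probes gave 0.60 and centring on all probes 1.14, and it was called higher under both. The protein's level is set mainly by degradation and was not measured here.

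Birc2 and Birc3, the genes of cIAP1 and cIAP2, neighbour each other, with 4 probes between positions 7849950 and 7880116 of chromosome 9 in the array's annotation. Older names of the pair cross over. The brighter probe of each was assigned by the symbol it carries on the array and is listed there under a RefSeq accession. The dimmer probes carry cDNA accessions and were assigned by name, that of Birc3 by its symbol and that of Birc2 by C330006D17Rik, a synonym of Birc2. None of the 4 probes was called. The brighter Birc2 probe had log2 levels of 12.50 and 12.50 in autoreactive cells, against 12.39 and 12.95 in non-autoreactive cells. Array 1 gave a log2 ratio of 0.11 and array 2 one of -0.45 (mean -0.17 ± 0.17, limma adjusted p = 0.581). The dimmer Birc2 probe had low log2 levels, between 7.24 and 7.67 over both channels and arrays. It gave log2 ratios of -0.08 and 0.27 (mean 0.097 ± 0.14, limma adjusted p = 0.712). Each Birc2 probe thus fell on opposite sides of 0 on the 2 arrays, and the probes did so in opposite order.

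The brighter Birc3 probe had log2 levels of 13.08 and 13.27 in autoreactive cells, against 13.02 and 13.36 in non-autoreactive cells. Its ratios (log2) were 0.065 on array 1 and -0.089 on array 2, with a mean of -0.012 ± 0.13 and a 95% interval of -0.32 to 0.29 (limma adjusted p = 0.965). The dimmer Birc3 probe gave 0.053 and -0.75 (mean -0.35 ± 0.20, limma adjusted p = 0.352). Its arrays were 0.80 apart, farther than 96.8% of probes, and its interval of -0.84 to 0.15 is the widest of the group.

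The ligands and downstream genes of the pathway were described from 7 lists of 80 other genes, of which 76 were on the array and 70 were detected. Of these 70, 4 were called higher and 4 lower, and their median log2 ratio was -0.068. The same arrays called 6.11% of all genes tested in either direction. Of the ligands, Tnfsf13b (BAFF) had a log2 ratio of -0.47 ± 0.14 (limma adjusted p = 0.123) and Tnfsf13 (APRIL) of -0.29 ± 0.12 (limma adjusted p = 0.235). Tnfsf12 (TWEAK) was not detected. Neither detected ligand was called.

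In the alternative NF-kB list, 1 of 5 genes rose and none fell. Nfkb2, whose product p100 is processed to p52 once NIK is released, had log2 levels of 11.02 and 11.65 in autoreactive cells, against 10.34 and 10.74 in non-autoreactive cells. Its ratios (log2) were 0.68 on array 1 and 0.92 on array 2 (mean 0.80 ± 0.13, limma adjusted p = 0.0266). This is the direction opposite to that of Tnfrsf13c on the same arrays. With the deposited ratios the value was 0.78 and the call was lost (limma adjusted p = 0.0619). Relb, the partner of p52, stood at 0.38 and was not called.

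In the canonical NF-kB list, none of 13 genes was called by limma, and without adjustment 1 was lower and 0 were higher at p under 0.05. The largest ratios were those of Tab1, an activator of the kinase TAK1 (-0.39), Nfkb1 (0.33), the inhibitor gene Nfkbia (0.33) and the kinase gene Ikbkb (-0.30). The 3 other Nfkb1 probes gave -0.36, -0.10 and -0.37, on the opposite side of 0 from its brightest, and none was called. Nfkbia stood at 0.74 on array 1 and -0.070 on array 2.

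Among the other TRAF adaptors and their partners, 2 of 13 genes rose and 1 fell. Tifa, which binds TRAF6, stood at 1.73 and 1.97 (mean 1.85 ± 0.13, limma adjusted p = 0.00289). Traf6, an adaptor of CD40 and Toll-like receptors, had a mean of 0.79 ± 0.13 (limma adjusted p = 0.0261), and both of its probes were called. Ikbke, a kinase of the interferon response, fell, with a mean of -0.70 ± 0.13 (limma adjusted p = 0.0357). Traf6 and Ikbke were not called with separate channels (limma adjusted p = 0.107 and 0.139). Traf6 also lost its call with the deposited ratios (limma adjusted p = 0.0617), and Ikbke without the filter on dim probes (limma adjusted p = 0.0522).

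Of 11 other TNF receptors detected, 1 fell and none rose. It was Tnfrsf18, the gene of the receptor GITR, at -1.11 and -1.35 (mean -1.23 ± 0.13, limma adjusted p = 0.00837). The list's median log2 ratio was -0.32, with -0.051 on array 1 and -0.57 on array 2. Cd40, another B cell receptor that uses TRAF3, stood at 0.061 and was not called. The list of other inhibitor of apoptosis genes also holds Diablo and Htra2, which antagonize that family and are not of it. None of the 8 detected genes of this list was called by limma, and 0 passed an unadjusted p under 0.05. Their largest ratios were those of Naip5 (-0.38), the protease gene Htra2 (-0.32), Birc6 (-0.16) and Naip6 (-0.16).

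Of 18 detected genes in the list of survival and surface genes linked to BAFF signalling, 1 rose and 2 fell. The list also holds Bcl2l11, a gene that promotes cell death, which was not called. Bcl2l1, the gene of the survival protein BCL-XL, stood at 0.61 and 0.64 (mean 0.63 ± 0.12, limma adjusted p = 0.0425). Its other probes were not called, and the call was lost with the deposited ratios, with an offset of 16 and without the filter on dim probes. Cr2, the gene of the complement receptor CD21, stood at -0.98 and -1.21 (mean -1.09 ± 0.13, limma adjusted p = 0.0102). Fcer2a, the gene of CD23, stood at -1.68 and -1.73 (mean -1.71 ± 0.12, limma adjusted p = 0.00292), and cells with CD23 on their surface had been sorted out of both groups. Bcl2 stood at -0.38 and Mcl1 at 0.081, and neither was called.

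**Figure D4:**
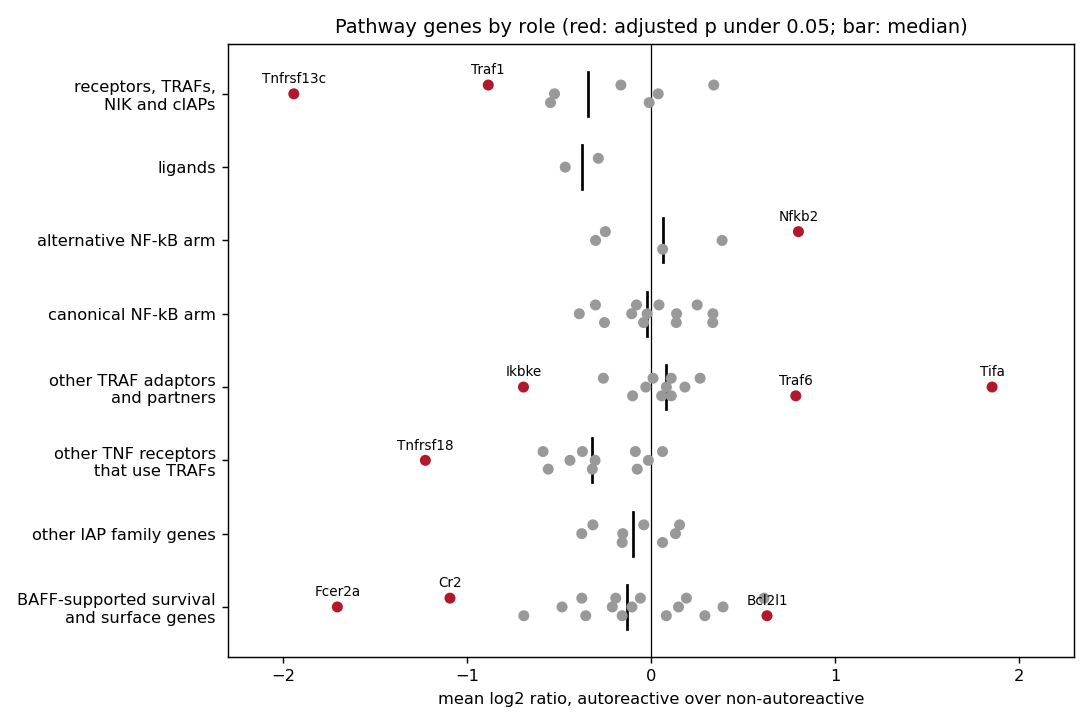
Mean log2 ratio of autoreactive over non-autoreactive cells (horizontal axis) for the 8 detected receptor pathway genes in the top row and the 70 detected genes of the 7 other lists below, 1 point per gene, with a black bar at each row's median. Red points, named, passed limma's adjusted p of 0.05. Tnfrsf13c and Traf1 of the top row and Fcer2a, Tnfrsf18, Cr2 and Ikbke of the other lists lie to the left of 0. Nfkb2, Tifa, Traf6 and Bcl2l1 lie to the right.

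The genes whose ratios on the 2 arrays were nearest to those of Tnfrsf13c, by Euclidean distance over 2 values, were Lmo2 (0.085), Ell3 (0.150), H2-Aa (0.155), Tlr1 (0.218) and Myo18b (0.261). Their mean log2 ratios ran between -1.92 for Lmo2 and -1.77 for Myo18b. H2-Aa is a class II gene of the H-2 region, whose haplotype differs between the mice.

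Markers of mature B cells moved with Tnfrsf13c. Of all genes tested, 2.61% were called lower. Of 6 detected markers, 5 were lower in autoreactive cells and none was higher. They were Ms4a1, the gene of CD20 (-3.61), Ccr6 (-2.09), Cxcr5 (-1.72), Fcer2a and Cr2. The list's median was -1.68 on array 1 and -1.76 on array 2. Its summed level was 16518 and 19819 in autoreactive cells, against 193629 and 149753 in non-autoreactive cells, and most of the sum was Ms4a1. Without Ms4a1 the sum was 5022 and 4578 in autoreactive cells, against 7312 and 8962 in non-autoreactive cells. In a sorted population, fewer cells of a type and less RNA per cell cannot be told apart. The part of these markers in the Tnfrsf13c ratio was not tested.

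Markers of plasmacytoid dendritic cells, some of which carry B220, had a median log2 ratio of -0.73 on array 1 and -2.33 on array 2, with 1 of 7 called lower. The gene called was Ly6d, at -1.48 on array 1 and -1.16 on array 2. All 7 were below 0 on both arrays, as were 35.3% of all genes tested. At a limma unadjusted p under 0.05, 5 of the 7 were lower, as were 12.3% of all genes tested. Their summed level was 85708 and 82031 in autoreactive cells, against 132528 and 154443 in non-autoreactive cells. Without Irf8, the brightest of them, the sum was 34396 and 34896 in autoreactive cells, against 76089 and 83758 in non-autoreactive cells. Most of this remaining sum was Ly6d. Its log2 levels were 14.33 and 14.51 in autoreactive cells, against 15.80 and 15.67 in non-autoreactive cells. Natural killer cell markers had medians of -0.044 and -1.26, with none of 7 called by limma and 3 lower at an unadjusted p under 0.05. Myeloid markers had medians of 0.081 and -0.61, with 1 of 9 called lower, Ltf. Their mean log2 ratios lay on both sides of 0, between -0.84 for Ltf and 0.28 for S100a9. T cell markers had medians of -0.14 and -0.70, with 1 of 8 called lower. The medians of these lists were lower on array 2 than on array 1. So were the ratios of Traf1, the brighter Tnfrsf13b and Birc2 probes and both Birc3 probes. Those of Tnfrsf13c, Traf2 and the dimmer Tnfrsf13b and Birc2 probes were higher on array 2. Traf3 and Map3k14 had nearly the same ratio on both arrays. Of the erythroid markers, all 7 detected were below 0 on both arrays and 2 were called lower. Markers of pro-B and pre-B cells moved in both directions, with 4 of 8 called higher, Rag1 among them, and 2 lower, as did those of plasma cells, with 2 of 5 higher and 2 lower. Over all genes tested, limma called 2.61% lower and 3.49% higher. The part of these lists in the ratios of the receptor pathway genes was not tested.

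**Figure D5:**
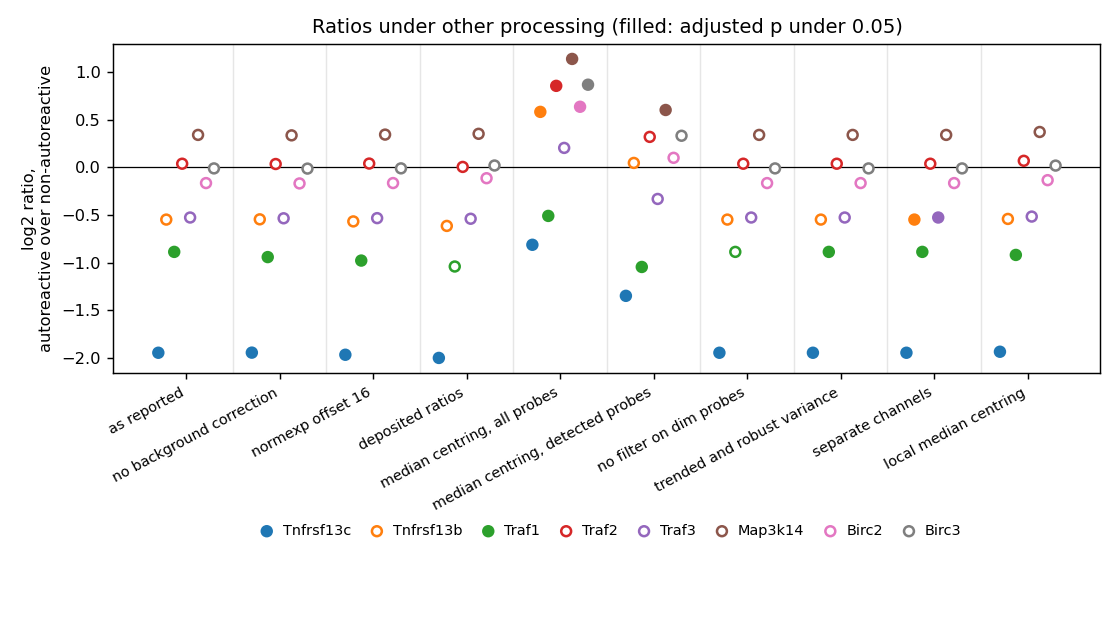
Log2 ratio of autoreactive over non-autoreactive cells (vertical axis) for the brightest probe of each detected gene under the reported processing and 9 others (horizontal axis), filled where the adjusted p was under 0.05. Tnfrsf13c is filled in every column, Traf1 in all but the deposited ratios and the fit without a filter, and centring on the median of all probes shifts all genes upwards.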

How the data were processed

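Each array held Cy5-labelled RNA of autoreactive cells and Cy3-labelled RNA of non-autoreactive cells, amplified from 0.5 ug of total RNA per the labels. The deposited scanner files hold, per the file headers, mean and median-background intensity of each spot (Agilent Feature Extraction 9.5.1.1). Their log10 ratio of Cy5 over Cy3 was made by the authors from background-subtracted, dye-normalized intensities, per the file headers, and served as an alternative. The deposited series table held the same log10 ratios. A p-value per spot, also deposited, was not used.

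In limma 3.58.1 (R 4.3.3), background was corrected with normexp, offset 50, followed by within-array loess. Outlier spots were dropped and repeated spots averaged. Tested probes had at least 1 channel well above background on each array. Log2 ratios were tested against 0 with lmFit and eBayes, two-sided, with 1 residual and 5.08 prior degrees of freedom, and p-values were adjusted over all 22623 probes. Channel levels were scaled with Aquantile. The brightest probe represented a gene. Probes were named through RefSeq accessions, symbols and synonyms (GRCm38.p6), and 8455 kept the name in the file. Figures were drawn with matplotlib 3.10.9.

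The genes and lists were chosen with earlier results of these data known. Named pathway genes are the called ones of each list or, where none was called, the 4 with the largest absolute ratio. Relb, Cd40, Bcl2, Mcl1, Bcl2l11, Diablo and the cell type markers named were chosen after their values were seen. The procedure was tested on simulated data. Alternatives covered background correction, scaling, filters, variance model, separate channels and the mean over probes.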

Additional observations from a re-analysis of the deposited data

How the results depend on the processing

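The ratios were recomputed under 11 other settings, of which centring each ratio on the median of the 501 probes nearest in level was chosen after seeing the data. With no background correction, a trended and robust variance, both channels well above background, or the mean over the probes of Tnfrsf13b, Birc2 and Birc3, no pathway gene named with its SE or as a list's largest ratio changed its direction or its side of the threshold, and Naip6 could not be fitted with both channels. Tnfrsf13c ranged between -2.00 and -0.81 and Traf1 between -1.04 and -0.51. Called genes of the receptor group numbered 2 lower and 0 higher as reported, 1 lower with the deposited ratios and with no filter on dim probes, and 4 lower with separate channels, which added Tnfrsf13b and Traf3. Centring on the median of all probes gave 5 higher and centring on detected probes 1 higher, beside the same count of 2 lower. Among the 70 other pathway genes, 4 higher and 4 lower became 1 higher with the deposited ratios, 50 higher with centring on all probes, and 16 higher and 12 lower with centring on detected probes. Over all probes, 712 higher and 490 lower became 427 higher with the deposited ratios, 301 lower with no filter, 14319 higher with centring on all probes, and 3488 higher and 3945 lower with centring on detected probes. Centring removes no trend of the dyes with brightness.

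With centring on all probes, the direction turned for Tnfrsf13b (0.58), Traf3 (0.20), Birc2 (0.63), both Birc3 probes (0.87 and 0.13), Tnfsf13 (0.17), Ikbkb (0.44), Tab1 (0.48), Birc6 (0.52) and Htra2 (0.69). With centring on detected probes it turned for Tnfrsf13b (0.046), both Birc2 probes (0.099 and -0.33), Birc3 (0.33) and Htra2 (0.15). The brighter Birc3 probe, near 0 as reported, also turned with the deposited ratios (0.019) and with centring on nearby probes (0.018). Single arrays give values with no test, which stand beside each gene above.

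No paired analysis was possible because each array already pairs 1 sample of each kind, the ratio is the pair's difference, and the replicate number is given for autoreactive pools only. Both arrays lay on 1 slide and were scanned together, so slide and scan could not be fitted as a block. With 2 arrays of the same dye orientation, a dye effect particular to a probe cannot be told apart from a difference between the cells. Signals close to background limit Tnfrsf17, and low signals limit the dimmer Tnfrsf13b and Birc2 probes.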
